A study of Mus musculus with 61 samples.

Results

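ChIP-seq for the co-activator p300 in WT mouse brain gave 9177 reproducible sites, of which 4155 overlapped no peak of SALL1 and none of SMAD4. These 4155 SALL1/SMAD4-free p300 sites are the subject here. They were selected on the peak calls themselves: a p300 peak was taken when not 1 bp of it lay under any of the 15410 SALL1 peaks or the 4024 SMAD4 peaks of WT microglia. The other 5022 p300 sites, called bound below, held a SALL1 peak only (2713 sites), both a SALL1 and a SMAD4 peak (1583 sites) or a SMAD4 peak only (726 sites). Absence of a peak means that none was listed, not that the factor was shown to be absent. Both deposited lists hold fewer peaks than the study's text names for these factors, SMAD4 most of all, and some sites counted here as free could count as bound on a longer list.

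p300 is a histone acetyltransferase that is brought to chromatin by transcription factors and acetylates histones there. Acetylated lysine 27 of histone H3 (H3K27ac) is found at active promoters and enhancers. In microglia, the resident macrophages of the brain, enhancers are opened by the ETS factor PU.1 together with partners of the IRF, C/EBP, AP-1, RUNX and MEF2 families. SALL1 is a zinc finger factor that among macrophages is characteristic of microglia, and SMAD4 is the shared SMAD that carries TGF-beta signals into the nucleus.

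The series holds 61 samples, of which 30 are inputs and were not used here. EKO mice carry a homozygous CRISPR deletion of a distant microglial enhancer of Sall1, made in every cell and not in microglia alone, and are on the C57/Bl6 background, as are the WT mice. H3K27ac was measured in sorted microglia, gated as CD11b+ CD45low CX3CR1+, with 2 EKO and 2 WT libraries, and in nuclei sorted for NeuN (neurons), Olig2 (oligodendrocyte lineage) and PU1 (microglia), with 2 EKO and 2 WT libraries of each. p300 (3 libraries), SALL1 (2) and SMAD4 (2) came from WT animals, so p300 itself was not measured in EKO. SALL1 was also measured in EKO mice and in the wild-derived strains PWK and SPRET, and SMAD4 in libraries labelled mutant. Those lists entered only overlap counts near the end. The methods give adult male mice for the WT and EKO experiments. p300 library 1 is labelled as whole microglia and p300 libraries 2 and 3 as PU1 nuclei. The SALL1 libraries are labelled as whole microglia, while the methods name sorted nuclei. The labels do not tell whether libraries of 1 group are from separate animals, so p-values measure only the spread between these libraries.

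Library levels set limits on what follows. The microglia H3K27ac table gives tags scaled to a depth of 10000000 in 133129 windows of 1000 bp on open chromatin, made from 9963453 to 24357798 tags per library. EKO library 1 stood apart, its median over the 55285 tested windows being 6.41 on the log2 scale, against 4.95 in EKO library 2 and 5.57 and 5.20 in WT libraries 1 and 2. Levels were therefore compared after quantile normalization, with the calls on the values as deposited given beside them. Among the lists of called H3K27ac regions in nuclei, PU1 WT library 1 was short, with 11149 regions, against 25990 and 26029 in the PU1 EKO libraries and 36057 in PU1 WT library 2.

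The sites were short intervals of 196 to 389 bp. A few are shown in letters because the results turn on them: Polr2a, Ppcdc, Rhob and Irf8 are among the 10 SALL1/SMAD4-free sites with the highest p300 scores, and the Sall1 and 1700021F07Rik sites lie under the windows with the largest loss and the largest gain of H3K27ac in EKO. Each is the plus strand of mm10 within the central 200 bp of the peak, with bases of annotated exons left off, and capitals mark matches to the motif letters given further on.

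Polr2a: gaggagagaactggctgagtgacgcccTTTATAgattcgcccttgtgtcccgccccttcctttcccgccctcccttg

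Ppcdc: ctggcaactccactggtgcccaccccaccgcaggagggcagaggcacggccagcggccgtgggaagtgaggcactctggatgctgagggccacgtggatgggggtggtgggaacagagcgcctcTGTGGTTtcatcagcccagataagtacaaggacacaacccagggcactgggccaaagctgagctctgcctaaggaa

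Rhob: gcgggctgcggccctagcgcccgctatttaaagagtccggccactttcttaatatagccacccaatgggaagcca

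Irf8: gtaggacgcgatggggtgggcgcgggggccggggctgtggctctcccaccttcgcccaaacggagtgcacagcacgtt

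Sall1: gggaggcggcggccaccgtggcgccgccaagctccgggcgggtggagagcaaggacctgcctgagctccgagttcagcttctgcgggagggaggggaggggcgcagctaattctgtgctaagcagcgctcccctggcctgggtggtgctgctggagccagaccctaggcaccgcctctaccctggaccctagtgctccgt

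1700021F07Rik: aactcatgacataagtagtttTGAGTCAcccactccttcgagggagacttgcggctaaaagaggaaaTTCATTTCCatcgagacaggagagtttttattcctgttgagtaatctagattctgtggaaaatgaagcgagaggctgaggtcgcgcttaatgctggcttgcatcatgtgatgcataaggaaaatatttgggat

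These 6 intervals differ in kind. The Polr2a sequence (chr11:69758634-69758710) lies at the start of the gene of the largest RNA polymerase II subunit and holds a TATA box core in capitals, read on the minus strand. The Ppcdc sequence (chr9:57420747-57420946) is intronic and holds a RUNX match. The Rhob sequence (chr12:8500010-8500084) and the Irf8 sequence (chr8:120736410-120736487) lie at promoters and hold none of the letters searched, and neither does the Sall1 sequence (chr8:89043625-89043824). The 1700021F07Rik sequence (chr2:173452005-173452204) is intergenic and holds an AP-1 match followed by a PU.1:IRF match.

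The SALL1/SMAD4-free sites were the weaker p300 sites of the list. Their median enrichment score, the authors' measure of peak strength, was 38 (interquartile range 22 to 68, full range 10 to 413), against 95 in bound p300 sites (55 to 146, full range 11 to 518). When all p300 sites were ranked by score and put in 5 bins of near equal number, SALL1/SMAD4-free sites made up 80.3%, 59.9%, 44.3%, 30.2% and 11.6% of the bins from the weakest to the strongest. These shares are a description of the lists. Open-chromatin windows covered 3744 SALL1/SMAD4-free sites (90.1%), against 4992 bound p300 sites (99.4%).

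SALL1/SMAD4-free sites lay at promoters more than bound p300 sites did. Within 3000 bp of an annotated transcription start site (TSS) lay 2013 of 4155 SALL1/SMAD4-free sites (48.4%, 95% Clopper-Pearson interval 46.9 to 50, counting error only), against 1141 of 5022 bound p300 sites (22.7%). The share was 18.1% in sites with SALL1 only and 18.3% in sites with SALL1 and SMAD4, but 49.7% in sites with SMAD4 only. The excess over bound p300 sites is thus one over sites that hold SALL1. Within 1000 bp the shares were 41.5% in SALL1/SMAD4-free sites and 14.1% in bound p300 sites. The median distance to a TSS was 3621 bp in SALL1/SMAD4-free sites and 14802 bp in bound p300 sites.

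The difference in place was present at each peak strength. In the 5 score bins, from the weakest to the strongest, the share within 3000 bp of a TSS was 32.2%, 53.5%, 59.7%, 62.2% and 56.3% of SALL1/SMAD4-free sites, against 18.2%, 21.6%, 26.2%, 24.4% and 20.7% of bound p300 sites. The share was thus higher in SALL1/SMAD4-free sites in each bin. No test was run on these shares, since the site classes come from single peak lists with no replicate of the list.

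**Figure D1:**
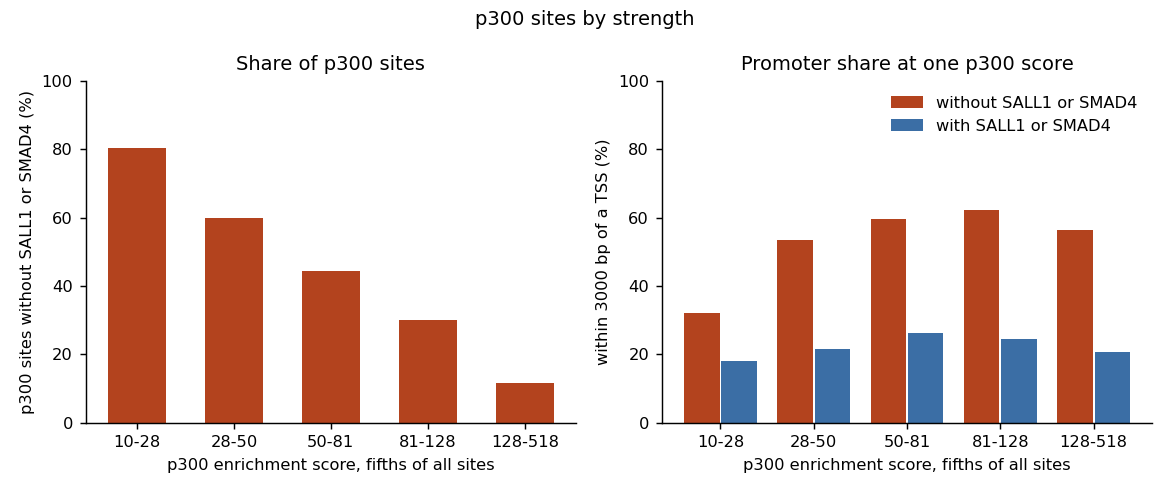
p300 sites in 5 bins of enrichment score, from the weakest to the strongest on the x axes. SALL1/SMAD4-free sites made up 80.3% of the weakest bin and 11.6% of the strongest, and the share within 3000 bp of a TSS was higher in SALL1/SMAD4-free sites than in bound p300 sites in each bin (for example 62.2% and 24.4% in bin 4).

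By gene feature, 1501 SALL1/SMAD4-free sites (36.1%) were in promoters, from 1000 bp before to 100 bp after a TSS, against 584 bound p300 sites (11.6%). Introns held 33.2% of SALL1/SMAD4-free sites and 46.7% of bound p300 sites, and intergenic sequence 23.8% and 38.4%. Among the sites within 3000 bp of a TSS, SALL1/SMAD4-free sites were centred on the TSS, with a median offset of 3 bp downstream and an interquartile range of −78 to 63 bp. The offset of bound p300 sites had a similar median of −10 bp but a wider interquartile range, −357 to 494 bp. The first 200 bp after the TSS held the centre of 35.6% of the TSS-near SALL1/SMAD4-free sites and of 18.9% of the TSS-near bound p300 sites.

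The rule has a sharp edge, and few sites sat on it. The SALL1/SMAD4-free sites closest to a SALL1 or SMAD4 peak were 2 bp away at Stab1 (score 88), 2 bp away at Pdgfb (score 119) and 4 bp away at S1pr4 (score 28). Just on the other side, p300 sites that overlapped such a peak by 4 bp near Gm4841 (score 38), 6 bp near Gm19951 (score 179) and 7 bp at Pald1 (score 81) counted as bound. Only 38 SALL1/SMAD4-free sites (0.915%) lay within 100 bp of a SALL1 or SMAD4 peak and 519 (12.5%) within 1000 bp. The median gap was 9623 bp. Of bound p300 sites, 108 (2.15%) were covered over under 50% of their length.

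Sequence letters differed between the classes, both near a TSS and far from one. The central 200 bp of each site was searched on both strands for fixed letters of SP/KLF factors (GGGCGGGG), the ETS core (CCGGAAG), NRF1 (GCGCATGCG), PU.1 (GAGGAAGT), PU.1:IRF (GGAANTGAA, which can overlap a PU.1 match), C/EBP (TTGCNNAA), SMAD (CAGACA), RUNX (TGTGGTT), AP-1 (TGANTCA), the TATA box core (TATAAA) and an AT-rich stretch (TATTTNTA). Letters of CRE (TGACGTCA), MEF2 (TATTTATAG, which holds the AT-rich letters), TFE (TCACGTGA), NF-Y (CCAATCAG), NF-kB (GGGANTTTC) and CTCF factors (CNAGGGGGC) each had matches in under 3% of SALL1/SMAD4-free sites near a TSS and far from one. A match is a description of the letters and not a bound site.

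Within 3000 bp of a TSS, SALL1/SMAD4-free sites were rich in the letters of promoters. SP/KLF letters were in 25.3% of SALL1/SMAD4-free sites, against 12.8% of bound p300 sites and 15.8% of all open windows there. ETS core letters were in 14.9%, against 8.59% and 7.39%, and NRF1 letters in 2.93%, against 1.14% in each of the others. The letters of microglial enhancers were less frequent: PU.1 was in 3.97% of SALL1/SMAD4-free sites, against 13.3% of bound p300 sites and 4.93% of open windows. C/EBP letters were in 4.37%, against 10.5% and 7.05%. SMAD letters were in 10.3%, against 20.2% and 13.6%. The base composition differed as well, with a median GC content of 66% in SALL1/SMAD4-free sites, 54.5% in bound p300 sites and 58% in open windows. Its part in the motif shares was not tested. The letters of promoters were not particular to SALL1/SMAD4-free sites. At all distances, SP/KLF letters were in 13.7% of them and 15.7% of sites with SMAD4 only, but 1.4% of sites with SALL1 only. ETS core letters were in 8.57%, 9.23% and 3.35%, and NRF1 letters in 1.49%, 1.24% and 0.111%. PU.1 letters did differ from sites with SMAD4 only, at 8.11% against 14.3%.

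Over 3000 bp from a TSS, SALL1/SMAD4-free sites were close to the average open window in some letters, above it in RUNX letters and below it in others. PU.1 letters were in 12% of them, against 18.2% of bound p300 sites and 11.2% of open windows. PU.1:IRF letters were in 5.42%, against 10.2% and 5.36%, and SMAD letters in 21.4%, against 27.9% and 21.2%. AP-1 letters were at a like share in all, 8.74%, 8.71% and 8.79%. RUNX letters were in 8.18% of SALL1/SMAD4-free sites, 10.6% of bound p300 sites and 6.39% of open windows. C/EBP letters were in 7.85%, below both bound p300 sites (12.5%) and open windows (10.4%). TATA box letters were in 5.51%, against 7.01% and 7.83%, and CTCF letters in 0.748%, against 0.438% and 2.13%.

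**Figure D2:**
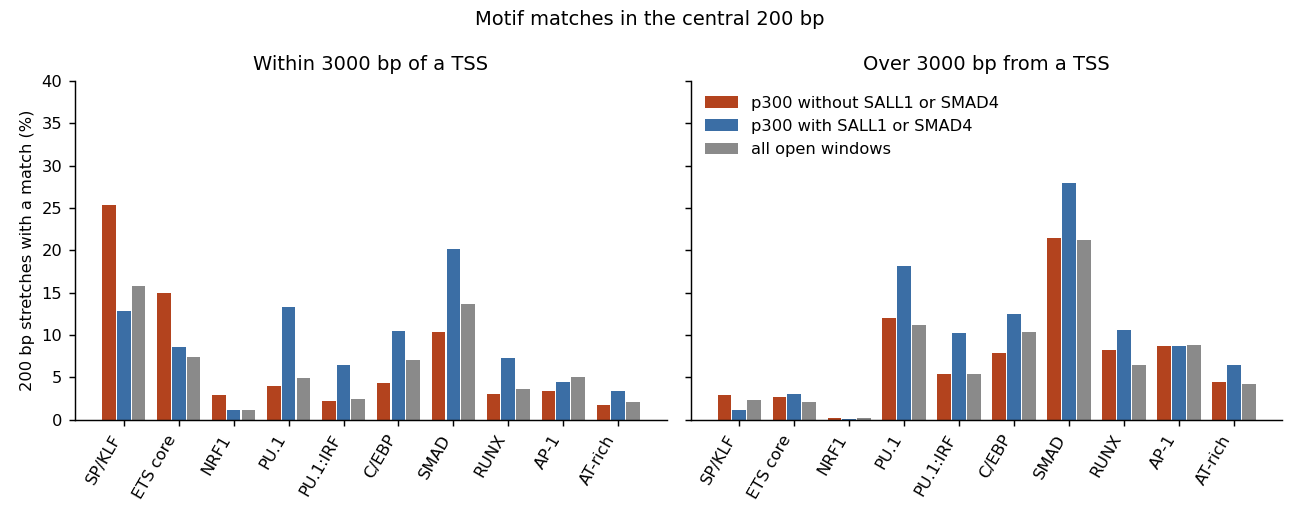
Share of sites with a motif match in the central 200 bp, for sites within 3000 bp of a TSS and sites farther away, in SALL1/SMAD4-free sites, bound p300 sites and all open windows. Near a TSS the SALL1/SMAD4-free sites have the highest SP/KLF share of the 3 groups (25.3%), and far from a TSS their PU.1 share (12%) is close to that of open windows (11.2%) and below that of bound p300 sites (18.2%).

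The H3K27ac regions of other brain nuclei gave the comparison that the choice of the sites did not use. Regions of NeuN nuclei covered 48.2% and 46.5% of SALL1/SMAD4-free sites in EKO libraries 1 and 2, and 46.3% and 45% in WT libraries 1 and 2. Regions of Olig2 nuclei covered 44.2% and 43.1% in the EKO libraries and 43.6% and 41.4% in the WT libraries. Bound p300 sites were covered far less, at 24% and 21.4% (EKO) and 21.7% and 21% (WT) in NeuN nuclei, and 21.3% and 20.5% (EKO) and 20.7% and 20.4% (WT) in Olig2 nuclei. No library of either kind of nuclei brought the classes close to each other.

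Averaged over the 8 NeuN and Olig2 libraries, coverage was 23.4 percentage points higher in SALL1/SMAD4-free sites than in bound p300 sites (SD 1.29, range 21 to 25, higher in 8 of 8 libraries, exact two-sided sign-flip permutation test p = 0.00781, the smallest that 8 libraries can give). The libraries share the site lists, so this test covers the spread between libraries only. The difference was 29.8 points (SD 1.49) among sites within 3000 bp of a TSS and 2.72 points (SD 0.999, range 1.71 to 4.56) among sites farther away. Place thus moved with this result. Against sites with SALL1 only it was 28.8 points and against sites with SALL1 and SMAD4 26.3 points. Against sites with SMAD4 only it was −3.08 points (SD 1.11), lower in SALL1/SMAD4-free sites in 8 of 8 libraries.

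PU1 nuclei gave the reverse order. Their H3K27ac regions covered 71.9% and 68.8% of SALL1/SMAD4-free sites in the EKO libraries and 40.2% and 76.6% in the WT libraries, against 91.5% and 89.9% (EKO) and 69.8% and 94.4% (WT) of bound p300 sites. Coverage was lower in SALL1/SMAD4-free sites in each of the 4 libraries. The low value in PU1 WT library 1 goes with its short region list.

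Between genotypes, coverage of SALL1/SMAD4-free sites was compared with 2 libraries against 2, where the smallest p is 0.333 and no test could pass 0.05. In NeuN nuclei it averaged 47.3 ± 1.23% in EKO and 45.7 ± 0.902% in WT (SD, n = 2 each, exact permutation p = 0.333), with both EKO libraries above both WT libraries. In Olig2 nuclei it averaged 43.7 ± 0.783% in EKO and 42.5 ± 1.57% in WT (SD, n = 2 each, exact permutation p = 0.667), and the groups overlap. In PU1 nuclei it averaged 70.4 ± 2.23% in EKO and 58.4 ± 25.7% in WT (SD, n = 2 each, exact permutation p = 1), and without WT replicate 1 the direction of this last difference turned (−6.22 points).

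The sites ranged from shared by all NeuN and Olig2 libraries to found in none. All 8 NeuN and Olig2 libraries covered 1212 SALL1/SMAD4-free sites (29.2%), of which 91.4% lay within 3000 bp of a TSS, against 429 bound p300 sites (8.54%). No NeuN or Olig2 library covered 1628 SALL1/SMAD4-free sites (39.2%), of which 17.1% lay within 3000 bp of a TSS, against 3009 bound p300 sites (59.9%). The remaining 1315 SALL1/SMAD4-free sites (31.6%) were covered in 1 to 7 of these libraries, and 47.6% of them lay within 3000 bp of a TSS, against 1584 bound p300 sites (31.5%) covered in 1 to 7. The shared SALL1/SMAD4-free sites had a median p300 score of 50 and those covered by no NeuN or Olig2 library one of 30. Regions of PU1 nuclei covered 94.5% and 92.3% (EKO) and 57% and 91.7% (WT) of the shared sites, and 56.3% and 54% (EKO) and 29.7% and 66.3% (WT) of those covered in no NeuN or Olig2 library. The sites in no NeuN or Olig2 library were thus also the less covered in PU1 nuclei, in each of the 4 PU1 libraries.

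The strongest sites show this mixture by name. Jund, a subunit gene of AP-1, held the highest score (413), in the 5′ UTR at 1224 bp from the TSS. Its H3K27ac was 767 and 264 tags in EKO libraries 1 and 2, and 618 and 431 tags in WT libraries 1 and 2, and all 8 NeuN and Olig2 libraries covered it. Polr2a (score 363), H4c3, a histone gene (323), and Rhob, a small GTPase gene (308), had their sites 23 to 35 bp from the TSS and were likewise covered in all 8. Ppcdc, a gene of coenzyme A synthesis (337), and Parp16 (268) had sites 18890 and −18091 bp from the TSS.

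Irf8, the gene of a transcription factor required for microglia, was of the other kind: its site 29 bp from the TSS scored 251 and was covered by both libraries of PU1 nuclei in each genotype but by no NeuN or Olig2 library. Its window had 63.2 and 14.2 tags in EKO libraries 1 and 2, and 30 and 41.8 tags in WT libraries 1 and 2, so that the groups overlap. Sites nearest to Rnf135 (248, within an intron of Adap2) and 5930403N24Rik (246) were also covered by no NeuN or Olig2 library. Zfp36l2, which encodes an RNA-binding protein (302), was covered by 4 Olig2 libraries and no NeuN library. None of the windows of these 10 sites was called changed between EKO and WT.

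Some well-known microglial genes had sites with PU1 coverage alone, and others did not. Siglech, a microglial surface receptor gene, had a site with a score of 234 at 3 bp from its TSS. Its window had 67.2 and 27.6 tags in EKO libraries 1 and 2, and 62.4 and 59.7 tags in WT libraries 1 and 2 (log2 change −0.79 ± 0.28 SE, limma adjusted p = 0.039, under the fold of 2 needed for a call). Spi1, which encodes PU.1, had an intronic site with a score of 123, whose window had 597 and 175 tags in EKO and 330.5 and 229 tags in WT (−0.01 ± 0.13). The promoter site of Runx1 (135) had 278 and 94.1 tags in EKO and 164 and 147 tags in WT (−0.18 ± 0.18). No NeuN or Olig2 library covered these 3 sites, and both PU1 libraries of each genotype did. Sites at Mertk (3 Olig2 libraries), Mef2a (4 NeuN and 4 Olig2) and Sall1 (3 NeuN and 4 Olig2) were covered in other nuclei as well, as was that at Rhob.

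Most SALL1/SMAD4-free sites within 3000 bp of a TSS at genes used by every cell were covered in all 8 NeuN and Olig2 libraries: 13 of 15 at genes of splicing and RNA export, 10 of 10 at genes of mitochondrial respiration, 12 of 13 at heat shock and unfolded protein genes and 5 of 6 at ribosomal protein genes. The promoter site of Rpl26, a ribosomal protein gene, was covered in 4 NeuN but 3 Olig2 libraries, and its window had 113 and 40.3 tags in EKO and 79.7 and 45.8 tags in WT. Others were higher. Sf3b1, a splicing factor gene, had 1076 and 300.2 tags in EKO and 474 and 316 tags in WT (0.27 ± 0.12). Ddx5, an RNA helicase gene, had 629 and 201 tags in EKO and 400.3 and 237 tags in WT (−0.05 ± 0.13). Hspa4, a heat shock protein gene, had 959.5 and 315 tags in EKO and 499 and 331 tags in WT (0.16 ± 0.11). The groups overlap at each, with EKO library 1 the highest and none called. A site at −1277 bp from the TSS of Skil, a TGF-beta co-repressor gene, was of the same kind, with 1564 and 568 tags in EKO and 730 and 656 tags in WT (0.12 ± 0.10).

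The SALL1/SMAD4-free sites were spread thinly over the genome. They were nearest to 3179 genes, of which 2529 had 1 such site, 450 had 2, 126 had 3, 43 had 4 and 31 had 5 or more. Bcor, a co-repressor gene, had the most, with 10 sites and 3 bound p300 sites. Sirpa, the gene of an inhibitory receptor of myeloid cells, Pdgfb, a growth factor gene, and Fli1, an ETS factor gene, had 7 each, with 2, 0 and 6 bound p300 sites. Runx1, a myeloid transcription factor gene, Chn2, Gm10790 and 5930403N24Rik had 6 each. Bcor had 2 windows of 15 called lower in EKO, and 5930403N24Rik and Chn2 had 1 each, of 7 and 5, while the other 5 of these genes had none. Of all tested windows 7.23% were called lower, and counts this small set no contrast with that share.

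Gene lists that were drawn up with earlier results known show which functions lie next to these sites. Of 34 microglia identity genes, 24 were nearest to a SALL1/SMAD4-free site and 32 to a bound p300 site. Of 36 myeloid transcription factor genes the counts were 26 and 24. Genes used by every cell were more often nearest to a SALL1/SMAD4-free site than to a bound one: 15 of 32 genes of splicing and RNA export against 3. For 31 genes of mitochondrial respiration the counts were 11 and 2, and for 24 heat shock and unfolded protein genes 11 and 3. Over all 24746 RefSeq genes, 12.8% were nearest to a SALL1/SMAD4-free site and 11.8% to a bound p300 site.

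Of the markers of other cell types, none of 16 neuron, 14 oligodendrocyte, 9 astrocyte or 12 lymphocyte genes was nearest to a SALL1/SMAD4-free site, and 1 of 10 endothelial and mural genes was (Pecam1). Bound p300 sites were nearest to 1 gene of each of these lists. At the shares over all RefSeq genes (12.8% and 11.8%) lists this short would hold few genes, so the counts set no contrast. In border macrophage genes it was 4 of 17, against 7 for bound p300 sites, and in monocyte genes 2 of 13, against 1. None of the 1212 sites shared by all NeuN and Olig2 libraries, 1108 of them within 3000 bp of a TSS, was thus nearest to one of these neuron or oligodendrocyte genes.

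H3K27ac at the sites was compared between EKO and WT microglia. SALL1/SMAD4-free sites overlapped 5612 windows, of which 4708 had a mean above 16 tags and were tested. Over all 5612 windows the median H3K27ac was 103 and 35.8 tags in EKO libraries 1 and 2, and 62.8 and 46.8 tags in WT libraries 1 and 2. The 7118 windows of bound p300 sites had medians of 119 and 41.1 tags (EKO) and 78.8 and 54.7 tags (WT). Within 3000 bp of a TSS both classes were at like levels, with 171 and 57.5 tags (EKO) and 99.8 and 69.7 tags (WT) in SALL1/SMAD4-free sites, and 175 and 56.8 tags (EKO) and 111 and 73.7 tags (WT) in bound p300 sites.

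Farther from a TSS the SALL1/SMAD4-free sites had less H3K27ac than bound p300 sites in each of the 4 libraries. Their medians were 45.2 and 17.2 tags in EKO and 30.4 and 23.9 tags in WT, against 104 and 36.6 tags (EKO) and 69 and 48.8 tags (WT) in bound p300 sites. On the log2 scale the gap of distal SALL1/SMAD4-free over distal bound windows was −1.19 and −1.05 in EKO libraries 1 and 2, and −1.16 in WT library 1, with WT library 2 lower by a fold of 2. Among tested windows alone, where low windows are left out, it was −0.67 and −0.57 in EKO and −0.66 and −0.52 in WT. At all distances the gap was −0.21 and −0.19 in EKO and −0.32 and −0.22 in WT over all windows, but 0.06 and 0.07 in EKO and −0.04 and −0.04 in WT over tested windows, so its direction in EKO turns with the filter on low values. The EKO minus WT difference of the gap was 0.10 over tested windows (n = 2 each, exact permutation p = 0.333, the smallest possible) and 0.07 over all windows.

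Windows called lower in EKO (adjusted p below 0.05 by limma with Benjamini-Hochberg adjustment over all 55285 tested windows, and a fold above 2) are termed lost, and those called higher gained. Of 4708 tested windows of SALL1/SMAD4-free sites, 308 (6.54%) were lost and 153 (3.25%) gained. Of all tested windows, 7.23% were lost and 9.22% gained, so the share lost was near the background and the share gained below it. Windows of bound p300 sites had 496 lost (7.52%) and 247 gained (3.74%) of 6598. Tested windows with no p300 site had 7.24% lost and 10.7% gained. Both classes of p300 sites were called in WT alone, which bears on their gains. The low share gained is thus no result about SALL1/SMAD4-free sites. The median log2 change was −0.04 in windows of SALL1/SMAD4-free sites, −0.14 in windows of bound p300 sites and −0.01 in all tested windows.

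These counts depend on the libraries. With the values as deposited, where the median of all tested windows was 0.28 on the log2 scale, 7 windows of SALL1/SMAD4-free sites were lost and 10 gained, against 0.128% lost and 0.814% gained of all tested windows. In simulated data with known changes and the same dispersion for all windows, the fit on values as deposited recovered none of the planted changes. The fit after quantile normalization recovered 38.2% of changes of 2 fold, 93% of 4 fold and 95.9% of 8 fold. A call needed a fold above 2, so planted changes of 2 fold lie at the threshold. Their share is therefore limited by the threshold as well as by the fit. On the data themselves the fit on values as deposited did call windows (71 lost and 450 gained of all tested). The simulation thus differs from the data and cannot tell what a call missing there means. Without EKO library 1, limma called 0 lost and 0 gained (347 and 162 at an unadjusted p below 0.05 and a fold above 2), and without WT library 1 also 0 and 0 (248 and 186). Without EKO library 2 the counts were 132 and 35, and without WT library 2 they were 44 and 47. On the recovered tags of all 4 libraries, edgeR called 316 and 160, and DESeq2 242 and 127.

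Losses gathered away from promoters, as they did in all tested windows. Within 3000 bp of a TSS, 70 of 3015 windows of SALL1/SMAD4-free sites were lost (2.32%) and 66 gained (2.19%), where all tested windows had 3.17% lost and 5.38% gained. Windows of bound p300 sites there had 57 lost (3.35%) and 36 gained (2.12%). Over 3000 bp from a TSS, 238 of 1691 windows of SALL1/SMAD4-free sites were lost (14.1%) and 87 gained (5.14%), where all tested windows had 10.5% lost and 12.3% gained. Windows of bound p300 sites there had 439 lost (8.97%) and 211 gained (4.31%).

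The distal share of losses was above that of bound p300 sites at each level of H3K27ac. In windows with a mean of 16 to 32 tags it was 16% in SALL1/SMAD4-free sites and 13.1% in bound p300 sites, at 32 to 64 tags 17.8% and 12.6%, at 64 to 128 tags 11.8% and 6.94%, and above 128 tags 6.98% and 5.09%. Distal windows with no p300 site had 10.5%, 11.4%, 11.1% and 6.27% lost at these levels, near the shares of SALL1/SMAD4-free sites above 64 tags. With values as deposited the distal shares of losses were 0.296% in SALL1/SMAD4-free sites and 0.306% in bound p300 sites. The difference between the classes was not tested, since neighbouring windows overlap and all come from the same 4 libraries. The distal median log2 change was −0.23 in SALL1/SMAD4-free sites and −0.19 in bound p300 sites, a smaller gap than that of the counts.

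**Figure D3:**
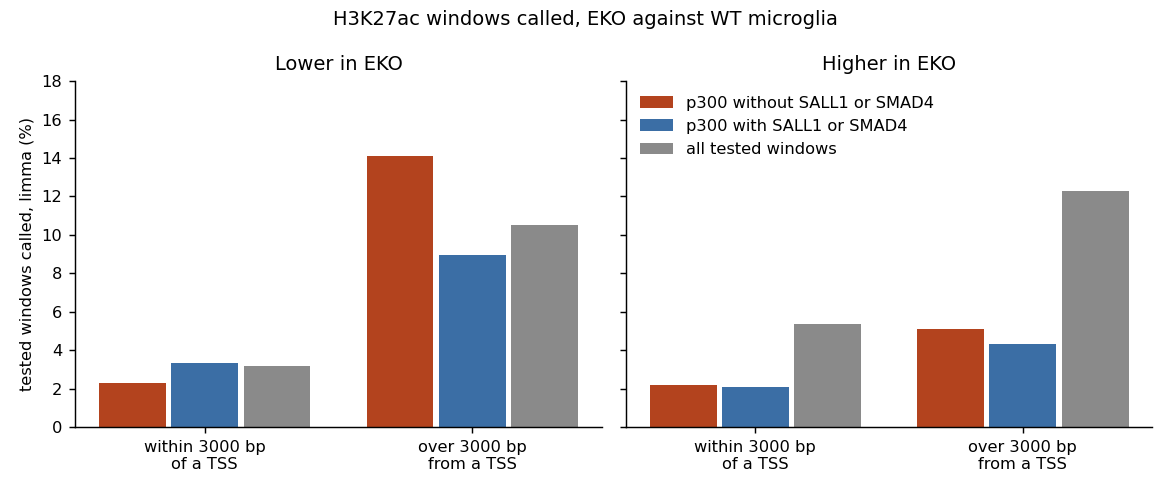
Share of tested H3K27ac windows called lost or gained in EKO against WT microglia, by distance from a TSS, in windows of SALL1/SMAD4-free sites, windows of bound p300 sites and all tested windows. Distal windows of SALL1/SMAD4-free sites have 14.1% lost, against 8.97% in bound p300 sites and 10.5% in all tested windows, while the 3 groups are at 2.32% to 3.35% near a TSS.

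Nearness to a SALL1 or SMAD4 peak did not go with more losses among distal sites. Of those within 1000 bp of such a peak 13.1% were lost and 1.94% gained, at 1000 to 10000 bp 12.4% and 4.62%, at 10000 to 100000 bp 17.4% and 8.54%, and beyond 100000 bp 19.4% and 7.46% (13 and 5 of 67 tested). These groups hold 206, 541, 363 and 67 tested sites. Sites covered in all 8 NeuN and Olig2 libraries had few calls, 1.37% lost and 1.37% gained of 1165, and those covered in none had 11.4% lost and 6.27% gained of 877. Bound p300 sites had 1.91% and 0.955% in the first case and 7.8% and 4.87% in the second. Near a TSS, where 91.4% of the first and 17.1% of the second SALL1/SMAD4-free sites lay, all tested windows had 3.17% lost and 5.38% gained. Farther away they had 10.5% and 12.3%. The part of position was not tested.

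PU1 nuclei gave a second set of libraries for the same sites. Each site took the call of the overlapped window with the nearest centre. Sites with no such window, or whose window was untested or held both classes, were left out. The other 2986 gave 214 lost, 104 gained and 2668 with neither call. Regions of PU1 nuclei covered 97.1% and 91.3% of gained sites in EKO libraries 1 and 2, against 14.4% and 69.2% in WT libraries 1 and 2. They covered 61.2% and 57% of lost sites in EKO, against 54.7% and 92.1% in WT. Sites with neither call had 92.7% and 89.5% in EKO, against 54.4% and 91% in WT. For lost sites the groups overlap, with PU1 WT library 1, which has the short list, below both EKO libraries. For gained sites both EKO values are above both WT values, with or without that library. NeuN nuclei covered 35.6% and 38.5% of gained sites in EKO, against 33.7% and 34.6% in WT.

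Sall1 itself carried the largest losses. The gene's deleted enhancer lies far upstream, where the 4 guides span chr8:89396646-89409890, and held 2 bound p300 sites and no SALL1/SMAD4-free site. From the gene to the enhancer there were 6 SALL1/SMAD4-free sites, at chr8:89028320-89028521, chr8:89031627-89031917, chr8:89043620-89043828, chr8:89046370-89046598, chr8:89272452-89272710 and chr8:89317550-89317753. The first and second are in coding exons of Sall1, the third is at its promoter, −212 bp from the TSS, and has a score of 223.

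At the Sall1 promoter site the window over the TSS had 0 and 2.24 tags in EKO libraries 1 and 2, and 241 and 108 tags in WT libraries 1 and 2 (log2 change −6.40 ± 0.52 SE, limma adjusted p = 5.46e-09). The intergenic site at −228419 bp from the TSS had 6.02 and 1.49 tags in EKO, against 116 and 88.6 tags in WT (−4.97 ± 0.46, limma adjusted p = 3.17e-08). The site at −2322 bp had 16.1 and 1.49 tags in EKO, against 96.9 and 41.8 tags in WT (−3.76 ± 0.54, limma adjusted p = 1.67e-05). A window at the first exonic site, which the authors annotate to Mir8110, had 6.02 and 2.99 tags in EKO, against 54.2 and 46.8 tags in WT (−3.60 ± 0.50, limma adjusted p = 1.10e-05). The 2 remaining sites were below the filter on low values, with 0 to 3.01 tags in EKO and 17.9 to 37.8 tags in WT.

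None of these 6 sites was under an H3K27ac region of PU1 nuclei in either EKO library, and each was in at least 1 WT library. The promoter site was covered in 3 of 4 NeuN libraries and 4 of 4 Olig2 libraries. Loss was thus called at 4 of 6 p300 sites with no listed SALL1 or SMAD4 peak that lay outside the deleted interval. The paper names the Sall1 promoter among the places bound by SALL1. A p300 site 16 bp from the TSS also held a SMAD4 peak. The promoter site is therefore free of a listed peak, and absence of either factor from this promoter was not shown. Bound p300 sites of this stretch outside the interval were lost as well, with log2 changes of −6.32, −3.83, −4.90 and −6.41. The loss was therefore not particular to SALL1/SMAD4-free sites.

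Other strong losses were at single sites. An intergenic window annotated to Mir152, near Copz2, had 3.01 and 1.49 tags in EKO libraries 1 and 2, and 98.9 and 48.8 tags in WT libraries 1 and 2 (−4.82 ± 0.55). In an intron of Plcg1, which encodes a phospholipase C, the window had 3.01 and 7.47 tags in EKO and 139 and 101 tags in WT (−4.57 ± 0.48). A window annotated to Ghdc, in the 3′ UTR of Stat5b, had 0 and 5.23 tags in EKO and 49.7 and 31.9 tags in WT (−3.90 ± 0.76). The named losses were chosen among windows whose 2 EKO libraries lay below both WT libraries, so this order is no result.

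At the promoter of Mlph, which encodes a melanosome transport adaptor, the window had 3.01 and 1.49 tags in EKO and 59.1 and 17.9 tags in WT (−3.76 ± 0.75). An intron of Eva1a had 13.1 and 2.99 tags in EKO and 62 and 71.7 tags in WT (−3.60 ± 0.45), and an intron of Smtnl1 had 5.02 and 5.23 tags in EKO and 68.6 and 49.8 tags in WT (−3.57 ± 0.48). The limma adjusted p of the 8 named losses lay between 5.46e-09 and 6.12e-04. As deposited, Sall1, Mir152 and Plcg1 kept their calls, while Ghdc, Mlph, Mir8110, Eva1a and Smtnl1 had log2 changes of −4.03, −3.42, −3.28, −3.18 and −3.28 with limma adjusted p of 0.0734 to 0.24. With DESeq2, Ghdc had a change of −3.49 and no call (adjusted p = 0.349). p300 scores of these sites were 27 to 77, apart from Sall1 with 223.

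The largest gain was at an intergenic site at −70488 bp from the TSS of 1700021F07Rik, whose AP-1 and PU.1:IRF letters are printed above. Its window had 798 and 223 tags in EKO libraries 1 and 2, and 17.2 and 3.98 tags in WT libraries 1 and 2 (5.16 ± 0.35, limma adjusted p = 4.31e-10). At a promoter of Wipf1, an actin regulator gene, the window had 78.3 and 43.3 tags in EKO and 1.23 and 1.99 tags in WT (4.16 ± 0.61). A window annotated to Mir7661, in an intron of the calcium channel gene Itpr1, had 107 and 41.8 tags in EKO and 3.69 and 1 tags in WT (4.15 ± 0.55). The named gains were likewise chosen among windows with both EKO libraries above both WT libraries.

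The other 5 named gains were in introns or between genes. Adam19, a membrane protease gene, had an intronic window with 131 and 42.6 tags in EKO and 2.46 and 4.98 tags in WT (3.77 ± 0.48). Cd36, the gene of a scavenger receptor for lipids, had an intronic window with 229.8 and 59.7 tags in EKO and 14.4 and 5.97 tags in WT (3.19 ± 0.35). S1pr1, a sphingosine phosphate receptor gene, had an intergenic window at −48402 bp from its TSS with 80.3 and 32.1 tags in EKO and 4.52 and 4.98 tags in WT (2.84 ± 0.48). The intergenic window nearest to Spred1, an inhibitor of Ras signalling, lay at −101737 bp from its TSS and had 336 and 99.3 tags in EKO and 11.9 and 10.9 tags in WT (3.57 ± 0.27). An intergenic window that the authors annotate to Bcar3, at −46905 bp from its TSS and over a p300 site nearest to Gm4610, had 216 and 72.4 tags in EKO and 14.4 and 3.98 tags in WT (3.53 ± 0.39). The limma adjusted p of the 8 named gains lay between 4.31e-10 and 1.11e-04, and their p300 scores between 16 and 29. As deposited, S1pr1 was not called (adjusted p = 0.114) and the other 7 were.

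**Figure D4:**
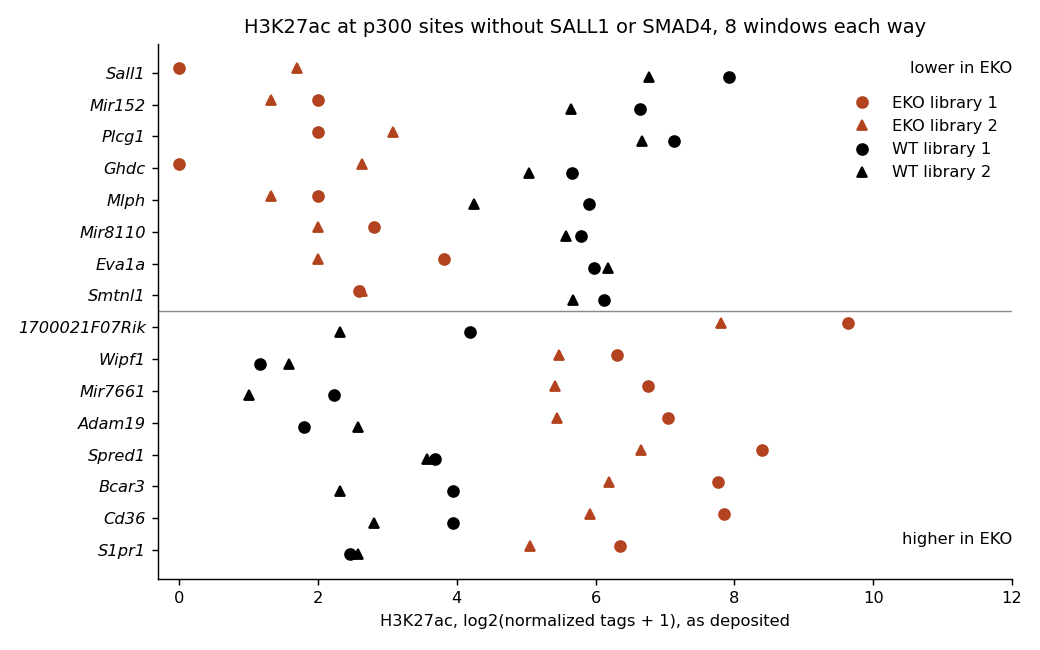
H3K27ac at the 8 lost and the 8 gained windows of SALL1/SMAD4-free sites with the largest change, 1 per nearest gene, as log2(normalized tags + 1) as deposited, 1 point per library. By the choice of the windows, both EKO libraries lie below both WT libraries in the upper 8 and above them in the lower 8. The largest log2 changes, after quantile normalization, were at Sall1 (−6.40) and 1700021F07Rik (5.16).

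Among the gene lists, losses were most numerous at microglia identity genes (14.5% of their windows, where 7.23% of all tested windows were lost and 9.22% gained), but most of these were at Sall1. Over all lists 31 windows were called, of which edgeR gave 29 the same call and DESeq2 27. With values as deposited 4 kept it, 3 at Sall1 and 1 at Cd36. Of 62 tested windows of SALL1/SMAD4-free sites at microglia identity genes, 9 were lost and 0 gained, with a median log2 change of −0.28, where the median of all tested windows was −0.01. Of the 9, 5 were at Sall1, the gene whose enhancer was deleted. The share of this list thus rests largely on that gene and sets no contrast for the other identity genes. The other 4 were 2 overlapping windows at Adgrg1, an adhesion receptor gene (−2.01 and −1.98), 1 at Rhob (−1.92) and 1 at Tmem119, a microglial surface protein gene. The Tmem119 window had 28.1 and 15.7 tags in EKO and 40.6 and 30.9 tags in WT (−1.05 ± 0.36, limma adjusted p = 0.0386). Its call was lost with DESeq2 (adjusted p = 0.188).

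Most other lists had shares of lost windows at or below the 7.23% of all tested windows. Myeloid transcription factor genes had 3 of 66 windows lost (4.55%), at Irf8 (−1.22), Mef2d (−1.15) and Rxra (just past the fold of 2), and 0 gained. The Irf8 and Rxra calls were lost with edgeR (adjusted p = 0.0577 and 0.0599), and all 3 with DESeq2 (adjusted p = 0.189, 0.212 and, for Mef2d, 0.0694). In cytokine and innate activation genes 2 of 27 were lost (7.41%), both at the chemokine gene Ccl5 (−1.22 and −1.21), and 1 was gained, at the interleukin 4 receptor gene Il4ra (1.71). In lysosome and phagocytosis genes 2 of 29 were lost (6.9%), both at the tetraspanin gene Cd9 (−2.47 and −2.35). Of 25 windows at co-activator and acetylation genes, 1 was lost (4%), at Kat2b, an acetyltransferase gene (−1.57).

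Gained windows of the lists were few, and some lists hold too few windows to set beside the 9.22% gained of all tested windows. Of 4 windows at border macrophage genes, 2 were gained and 0 lost. Pf4, a chemokine gene, had 68.2 and 32.9 tags in EKO and 3.28 and 11.9 tags in WT (2.37 ± 0.52), and F13a1, a coagulation factor gene, had 58.2 and 20.9 tags in EKO and 7.39 and 6.97 tags in WT (1.77 ± 0.48). Of 12 windows at lipid and apolipoprotein genes, 4 were gained, 2 at Cd36 and 2 at the lipoprotein lipase gene Lpl (2.21 and 1.98). Summed over the border macrophage windows, H3K27ac was 487 and 156 tags in EKO libraries 1 and 2, and 175 and 109 tags in WT libraries 1 and 2. Monocyte genes had 4 windows with no call, summing to 751 and 232 tags in EKO and 454 and 319 tags in WT. The part of other macrophages in the sort was not tested.

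Ifi204, an interferon-inducible gene, was gained with 284 and 93.3 tags in EKO and 33.2 and 17.9 tags in WT (2.42 ± 0.26), 1 of 6 windows of that list. Of 34 windows at AP-1 and immediate early genes, 3 were gained (8.82%, near the 9.22% of all tested windows), 2 at the nuclear receptor gene Nr4a2 (1.47 and 1.34) and 1 at Ier3 (1.41). In the TGF-beta pathway 3 of 32 were gained (9.38%, likewise near it), 2 at Bambi (1.38 and 1.27), a decoy receptor gene, and 1 at Tgif1 (1.17), a co-repressor gene. Genes used by every cell had no calls by limma: 0 of 29 windows in splicing and RNA export, 0 of 20 in mitochondrial respiration, 0 of 25 in heat shock and unfolded protein and 0 of 19 in ribosomal protein genes, with list medians of −0.05 to 0.20. Most of their sites lay near a TSS, where 2.32% of windows of SALL1/SMAD4-free sites were lost and 2.19% gained. Lists this short could hold no call at such shares.

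Genes that the study singles out had few calls at these sites. Apoe, Axl, P2ry12 and Slc2a5 had no SALL1/SMAD4-free site nearest to them, and had 1, 1, 2 and 2 bound p300 sites. Olfml3, a secreted protein gene of microglia, had 6 tested windows and 0 calls, with log2 changes of −0.70 to 0.66, and Selplg had 1 with −0.33. Tgfbr2, the gene of a TGF-beta receptor, had 3 windows at its promoter with log2 changes of 0.54 to 0.76, and limma adjusted p of 8.40e-04 to 0.00159, under the fold of 2 needed for a call. Another Tgfbr2 window, in an intron 63742 bp from the TSS, had 18.1 and 16.4 tags in EKO and 30.4 and 27.9 tags in WT (−1.06 ± 0.43, limma adjusted p = 0.0801), and it passed with the replicate number as a block (limma adjusted p = 0.0485). Ski, a co-repressor of TGF-beta signalling, had changes of −0.93 to −0.34 in 4 windows, none past a fold of 2. The Ski window with the largest of these changes (−0.93, limma adjusted p = 0.00154) was called lower with edgeR (−1.02, adjusted p = 3.90e-04) and with DESeq2 (−1.01, adjusted p = 0.00464). Tmem119 had 2 further windows without a call (−0.99 and −0.14), of which the first was called lower with edgeR (−1.11, adjusted p = 0.0384) but not with DESeq2 (−1.05, adjusted p = 0.209).

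The letters of distal sites with a call were also counted. AP-1 letters were in 18.5% of the 65 gained distal SALL1/SMAD4-free sites, 8.24% of the 170 lost ones and 10.3% of the 942 with neither call. RUNX letters were in 20%, 8.24% and 7.64%, and C/EBP letters in 12.3%, 4.12% and 9.24%. SMAD letters were in 20%, 28.2% and 20.2%. Distal bound p300 sites had C/EBP letters in 21.5% of gained, 9.43% of lost and 12.4% of other sites, and SMAD letters in 28.9%, 37.1% and 27.8%. Their AP-1 shares were 12.1%, 7.55% and 9.08%, and their RUNX shares 10.7%, 5.35% and 10.7%. The C/EBP, SMAD and AP-1 orders were thus not particular to SALL1/SMAD4-free sites. The gained SALL1/SMAD4-free group is small, and no test was run on these shares.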

How the data were processed

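The submitters' processing notes list Bowtie2, HOMER, DESeq2 and mm10 without versions. The authors aligned reads with Bowtie2 and counted tags with HOMER. The deposited microglia table gives an H3K27ac signal in normalized tags. Every value (100%) was a whole multiple of 1 tag within 0.05 tags, which gave the depths. The deposited nuclei lists hold called regions with a signal and a fold ratio over input of at least 4. The deposited p300, SALL1 and SMAD4 lists hold 1 reproducible set per group, each peak with its IDR and enrichment scores. The depth of the libraries behind these lists is unknown. No columns of per-sample values were left unmapped.

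Overlaps needed 1 bp. Nearest genes of sites came from RefSeq on mm10, those of windows from the authors. Windows with a mean above 16 tags were tested with limma 3.58.1 (R 4.3.3) on log2(tags + 1), quantile normalized, with a mean-variance trend. The pseudocount understates changes of low windows. The study used DESeq2, and limma was chosen because the values are normalized. Recovered tags were also tested with edgeR 4.0.16 and DESeq2 1.42.0. The 110 windows that also held a p300 site of the other class were left out. The fit was checked on simulated data. Replicates differed by more than sampling noise (chi-square per degree of freedom 2.9 in EKO and 3.2 in WT).

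Sites and gene lists were chosen with earlier results of these data known. Named were the 8 lost and 8 gained windows with the largest change and no overlap between groups, 1 per gene, the 10 highest p300 scores, the 8 genes with most sites, up to 4 list genes by p300 score, called windows of the lists, and windows at 9 genes of the study.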

Additional observations from a re-analysis of the deposited data

Results flagged for a closer look

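Peak lists that did not enter the choice of the sites still met some of them. The SMAD4 list of the libraries labelled mutant, whose titles name a conditional SMAD4 deletion and whose description names the EKO, overlapped 153 of 4155 SALL1/SMAD4-free sites (3.68%, 95% Clopper-Pearson interval 3.13 to 4.3), against 1124 of 5022 bound p300 sites (22.4%). Of the 153, 67.3% lay within 3000 bp of a TSS. The SALL1 list of PWK, a wild-derived strain, overlapped 80 SALL1/SMAD4-free sites (1.93%), against 1131 bound p300 sites (22.5%). The SALL1 list of SPRET, another wild-derived strain, overlapped 56 (1.35%), against 888 bound p300 sites (17.7%). The 7 SALL1 peaks of EKO overlapped 0 SALL1/SMAD4-free sites and 4 bound p300 sites. These counts come from 1 list per group, and whether they differ from WT beyond the spread between libraries was not tested.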

How the results depend on the processing

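Counts of calls moved most. Windows of SALL1/SMAD4-free sites were lost in 7 cases and gained in 10 with values as deposited, and 192 were lost with a mean above 32 tags, where fewer windows were tested. With 1 library left out, where a lone library was assumed to vary like the others, losses ranged from 0 to 132 and gains from 0 to 47. The share of sites near a TSS was 41.5% within 1000 bp and 53.5% at an IDR score of at least 830. At a fold over input of at least 8, the EKO minus WT difference in coverage turned to −0.181 points in NeuN and −0.71 points in Olig2 nuclei. With libraries left out, the PU1 difference ranged from −6.22 to 30.2 points.

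With the replicate number as a block, 325 windows were lost and 159 gained. Deviations of same-numbered libraries correlated at 0.039, so the libraries share only a number. Of the 34 named windows, 33 kept their side of the threshold under the block. For single windows, the Tmem119 window at chr5:113798966-113799966 turned to 0.24 as deposited. Without 1 library it ranged from −0.36 to 0.09, the Olfml3 window at chr3:103732620-103733620 from −0.13 to 0.79 and that at chr3:103737963-103738963 from −0.19 to 1.07.

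The difference in NeuN and Olig2 coverage was 21.8 to 27.6 points under the coverage, fold and IDR settings. The split near a TSS (29.8 points) and the left-out libraries (23.3 to 23.7 points) were chosen after seeing the data. The cause of these changes was not tested. Depth limits windows near 16 tags, and 2 libraries per group limit each test.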
